A study of Mus musculus with 2 samples.

Results

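The interferon response genes are 30 loci that are switched on when a cell senses interferon, and here the openness of their chromatin was measured in nuclei of mouse brain after stroke. They were taken as a list of 30 gene symbols, and each locus was the gene body of the GENCODE M21 model on mm10 plus 2 kb upstream. All 30 were found. Of these, 29 are among the 21911 protein-coding genes counted, and Mx2 is annotated as a polymorphic pseudogene in this release.

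The nuclei came from young adult male C57BL/6J mice aged 8 to 12 weeks and labelled WT. In the stroke group a filament closed the middle cerebral artery for 1 h and was withdrawn, and the ipsilateral hemispheres of 4 animals were pooled at 48 h. In the sham group the filament was inserted without lasting closure, and 4 brains, with no side named, were pooled at 48 h. Both groups lacked olfactory bulbs and cerebellum. Each condition was therefore 1 library, so no difference between sham and stroke has a replicate check, no test was possible, and the intervals below cover counting error only. Surgery, side of the brain, animals and library cannot be told apart.

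In scATAC-seq the Tn5 transposase cuts accessible DNA and every fragment is tagged with a barcode shared by fragments of one nucleus. The kept nuclei numbered 6817 in sham and 5054 in stroke, with 73477848 and 52794287 fragments. A level is the number of fragments over a locus per 1000000 fragments of the same nuclei (CPM), and levels of different genes are compared per kb of locus. The share of fragments in peaks had a median of 38.8% in sham and 33.2% in stroke, and a further 162 sham and 3686 stroke barcodes at or under 20% were left out. The libraries shared 42 barcode sequences among kept nuclei, and no doublets were removed.

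Interferons bind receptors at the cell surface, and kinases there pass the signal to transcription factors. In the response to type I interferon, STAT2 and IRF9 are parts of a complex that binds the interferon-stimulated response element, and the response to type II interferon (interferon gamma) runs through the gamma-activated site. The induced proteins degrade or mask viral RNA, block entry or translation, or, as the guanylate-binding proteins do, coat intracellular pathogens. In brain, microglia, astrocytes and vascular cells are known to respond.

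The DNA of 6 stretches is shown because they lie at loci that held more signal in stroke astrocyte-like nuclei, over the whole locus or in 1 window, or, for Isg15, hold a dense set of motifs at a locus with too few fragments to compare there. Capitals mark the core of the interferon-stimulated response element (GAAANNGAAA, or TTTCNNTTTC when read on the other strand) and the gamma-activated site (TTCNNNGAA). All are from GRCm38, the build of mm10, written 5′ to 3′ on the strand of the gene, and none overlaps an annotated exon. The first pair are 300 bases about the highest point of signal in stroke astrocyte-like nuclei, within an intron of Gbp5 on chr3:142499004-142499303 and upstream of Mx2 on chr16:97534999-97535298, both on the plus strand.
Gbp5: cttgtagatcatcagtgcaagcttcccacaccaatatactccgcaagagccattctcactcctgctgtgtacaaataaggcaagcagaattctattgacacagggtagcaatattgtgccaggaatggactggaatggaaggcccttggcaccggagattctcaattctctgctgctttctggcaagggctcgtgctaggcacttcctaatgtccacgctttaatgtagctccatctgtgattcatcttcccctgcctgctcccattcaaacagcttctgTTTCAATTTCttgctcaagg
Mx2: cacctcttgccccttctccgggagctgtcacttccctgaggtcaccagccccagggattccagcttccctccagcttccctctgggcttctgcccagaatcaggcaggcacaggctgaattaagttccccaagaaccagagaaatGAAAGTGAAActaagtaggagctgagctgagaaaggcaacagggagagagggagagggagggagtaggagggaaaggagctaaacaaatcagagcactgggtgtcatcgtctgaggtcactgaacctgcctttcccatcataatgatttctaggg

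The other 4 are the 250 bases before the start in the RefSeq promoters of Gbp7 (chr3:142530086-142530335, plus strand), Irf1 (chr11:53769764-53770013, plus strand), Ifit3 (chr19:34583279-34583528, plus strand) and Isg15 (chr4:156200819-156201068, minus strand).
Gbp7: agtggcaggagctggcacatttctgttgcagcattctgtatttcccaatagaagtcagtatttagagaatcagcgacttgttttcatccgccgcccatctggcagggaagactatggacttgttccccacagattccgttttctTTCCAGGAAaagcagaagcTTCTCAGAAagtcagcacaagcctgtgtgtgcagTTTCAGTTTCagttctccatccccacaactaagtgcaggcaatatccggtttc
Irf1: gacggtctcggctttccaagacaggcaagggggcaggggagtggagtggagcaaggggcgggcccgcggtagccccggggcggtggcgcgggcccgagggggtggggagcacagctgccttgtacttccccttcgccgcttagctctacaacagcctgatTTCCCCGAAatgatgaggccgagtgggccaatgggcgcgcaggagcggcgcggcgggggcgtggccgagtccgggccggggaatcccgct
Ifit3: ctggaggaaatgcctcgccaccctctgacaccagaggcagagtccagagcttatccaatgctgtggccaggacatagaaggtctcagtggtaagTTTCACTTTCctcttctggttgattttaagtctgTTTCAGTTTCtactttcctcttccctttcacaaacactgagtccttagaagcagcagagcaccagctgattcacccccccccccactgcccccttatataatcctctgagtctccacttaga
Isg15: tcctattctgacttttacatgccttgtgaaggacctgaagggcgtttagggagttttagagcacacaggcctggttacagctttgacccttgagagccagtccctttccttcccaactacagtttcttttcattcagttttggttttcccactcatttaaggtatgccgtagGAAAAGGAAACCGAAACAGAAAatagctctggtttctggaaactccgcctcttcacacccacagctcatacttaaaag

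In these letters the Gbp7 promoter holds 1 response element core and 2 gamma-activated sites, the Irf1 promoter holds 1 gamma-activated site and no response element core, and the Ifit3 promoter holds 2 response element cores. Of the 3 cores of Isg15, each overlaps the next. RefSeq promoters, each of 300 bases including the 50 after the start, were matched for 23 of the 30 genes. Of these, 16 (69.6%) held the response element core on either strand and 8 (34.8%) held the gamma-activated site, whereas 3.99% and 9.55% of 27025 genes did. The match is a description of letters and does not show binding.

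Nuclei were placed in 7 classes by their marker genes, after the tiles of the genome that hold interferon pathway genes had been removed from the map of neighbours, so the classes did not use the loci described here. Of 11871 nuclei, 7502 were placed. The sham and stroke libraries gave 510 and 619 astrocyte-like nuclei, 23 and 199 myeloid-like, 163 and 247 vascular-like, 108 and 178 oligodendrocyte-like, 97 and 97 OPC-like (oligodendrocyte precursor), 1151 and 468 glutamatergic-like and 2240 and 1402 GABAergic-like. The markers that placed the nuclei were then counted, which is no independent check of the classes. All 18 astrocyte markers and all 25 myeloid markers were at least 1.5-fold above the other nuclei in both libraries. So were 12 (sham) and 14 (stroke) of 16 glutamatergic markers, and 17 of 21 vascular markers in each library. When nuclei were placed with one part of each list, the astrocyte markers left out were 2.87-fold and 4.28-fold above the other nuclei, but the glutamatergic ones only 1.44-fold and 1.45-fold, so that class is the least certain.

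The summed level of the 30 loci differed by class. In the stroke library it was highest in vascular-like nuclei at 0.782 CPM per kb (95% interval 0.721 to 0.848), then 0.721 in myeloid-like (0.682 to 0.763), 0.668 in astrocyte-like (0.642 to 0.695), 0.567 in oligodendrocyte-like (0.514 to 0.624), 0.511 in OPC-like (0.448 to 0.581), 0.427 in GABAergic-like (0.413 to 0.441) and 0.377 in glutamatergic-like nuclei (0.358 to 0.396). The intervals of vascular-like and myeloid-like, of myeloid-like and astrocyte-like, and of oligodendrocyte-like and OPC-like nuclei overlapped. The top rank depended on the processing, and vascular-like nuclei had the lowest median depth of the classes, 1484 fragments in sham and 3196 in stroke. Vascular-like nuclei stood at 1.70 times all other nuclei of the stroke library, but at 1.09 times with each nucleus placed on its own markers alone, below astrocyte-like (1.33) and myeloid-like nuclei (1.34), and at 1.26 times when scaled to promoter fragments, below myeloid-like nuclei (1.48). Vascular-like nuclei were also highest in sham at 0.815 (0.712 to 0.928), and the neuronal classes stood there at 0.365 and 0.347, within the interval of oligodendrocyte-like nuclei (0.322 to 0.444). These values include the background of closed chromatin, which was measured at 1464 olfactory and vomeronasal receptor genes, loci that are silent in brain. It lay between 0.0523 and 0.114 CPM per kb in sham and between 0.0742 and 0.116 in stroke.

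**Figure D1:**
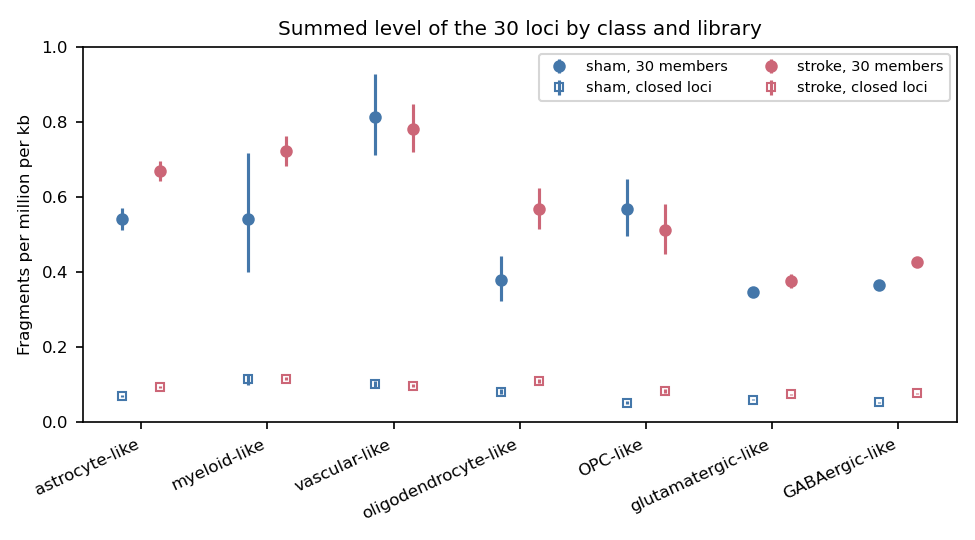
Summed level of the 30 interferon response loci (filled circles) and of 1464 closed loci (open squares), in CPM per kb, for each marker-gated class in the sham (blue) and stroke (red) library, with 95% counting intervals. Astrocyte-like, oligodendrocyte-like and GABAergic-like nuclei lay higher in stroke with intervals apart, the intervals of the other classes overlapped, and the members stood above the closed loci in each class.

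Over all kept nuclei the summed level was 256 CPM in sham and 317 CPM in stroke, a ratio of 1.24 (1.21 to 1.26), while closed loci were 1.46-fold higher (1.45 to 1.48). A gene was called higher or lower when its levels differed by at least 1.5-fold and at least 10 fragments were expected in each library at equal levels. The expected number came from the fragments of both libraries together, so a locus with few fragments in one library could pass through the other. By the rule for calls 5 of the 30 were higher and 0 lower, beside 11.2% of 20876 genes called higher and 77 of 20876 called lower. The count of 5 was larger under several other settings, which the closing section gives with the share of all genes. The median log2 ratio was 0.34 for the members and -0.03 for all genes. The 5 were Ifit3 and the 4 guanylate-binding proteins. Ifit3, which binds viral RNA together with its relatives, had 221 fragments in sham and 267 in stroke, or 3.01 and 5.06 CPM. Its ratio was 1.68 (1.40 to 2.02). Gbp2 stood at 2.16 CPM in sham and 5.13 in stroke (ratio 2.37, 1.94 to 2.90), Gbp3 at 3.13 and 7.52 (2.40, 2.04 to 2.84), Gbp5 at 4.00 and 8.26 (2.06, 1.78 to 2.40) and Gbp7 at 4.93 and 9.66 (1.96, 1.71 to 2.25). Per kb of locus, Irf9 was the most accessible member at 1.95 in sham and 2.40 in stroke, and Ifi44 the least in sham at 0.0964, with Oas1a the least in stroke at 0.119. The order differed over promoters, taken as 1 kb on either side of the start. There Stat2 was highest at 9.79 CPM per kb in sham and 9.49 in stroke, with Irf9 at 5.43 and 7.21. Oas1a was lowest there in both libraries, at 0.116 and 0.151. Over all nuclei, more nuclei of a class and more open chromatin per nucleus cannot be told apart. Astrocyte-like nuclei made up 7.48% of sham and 12.2% of stroke nuclei and myeloid-like ones 0.337% and 3.94%, so each class is described on its own.

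**Figure D2:**
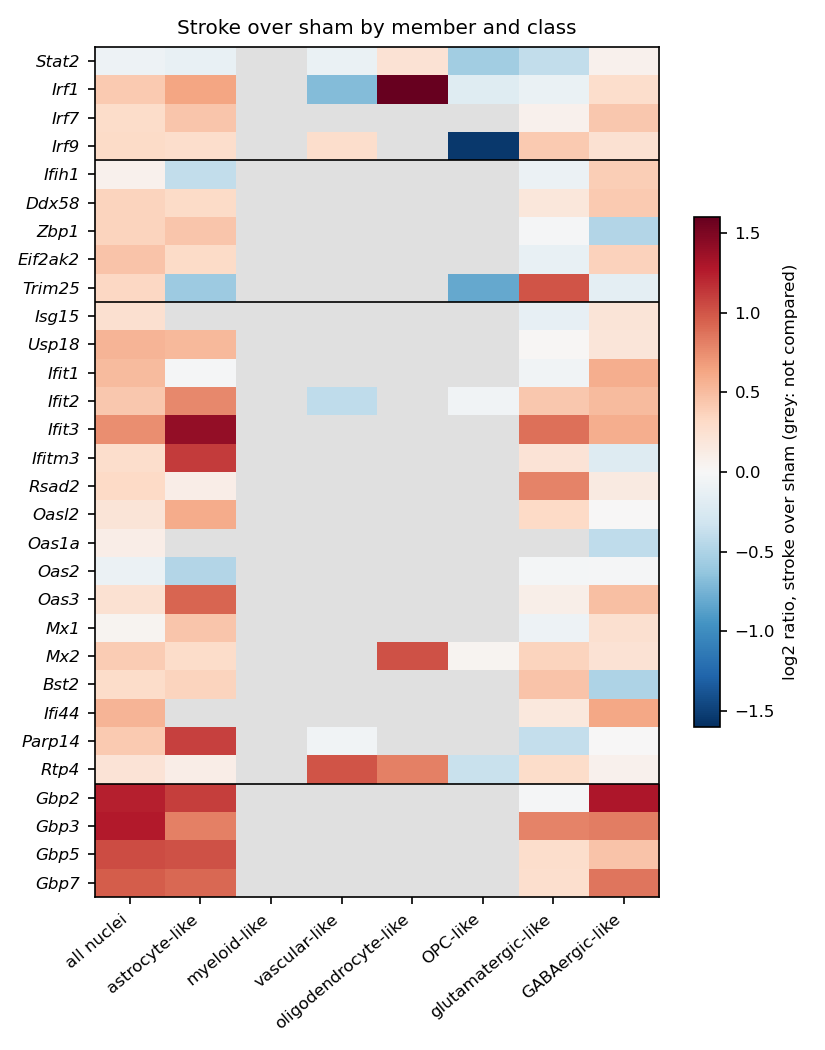
Log2 ratio of stroke over sham for each of the 30 genes (rows, grouped as transcription factors, sensors, antiviral effectors and GTPases) in all kept nuclei and in each class (columns). Grey cells had too few fragments to compare. The 4 Gbp rows are red in all nuclei and in astrocyte-like nuclei, and the myeloid-like column is empty because the sham library held 49 member fragments there.

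Among the classes the most calls were in astrocyte-like nuclei, where 11 of the 27 genes that could be compared were higher in stroke and 0 lower. Fewer genes could be compared in some classes, and the classes were not tested against each other. Of all 16830 genes compared in astrocyte-like nuclei, 8.51% were higher and 6.03% lower. The members' count was smaller with a larger minimum of expected fragments, as given in the closing section. Ifit3, with 9 fragments in sham, passed the minimum through its 35 in stroke. The median log2 ratio was 0.45 for the members and -0.06 for all genes. The 11 were Irf1, Ifit2, Ifit3, Ifitm3, Oasl2, Oas3, Parp14, Gbp2, Gbp3, Gbp5 and Gbp7. For 9 of the 27 the interval of the ratio lay above 1, which leaves out Oasl2 (0.78 to 3.07) and Oas3 (0.90 to 4.40). For 1, Trim25, it lay below 1. Of the 16830 genes, 2016 had an interval above 1 and 3333 an interval below 1. The summed level was 366 CPM in sham (347 to 386) and 453 CPM in stroke (435 to 471), a ratio of 1.24 (1.16 to 1.32). Closed loci were 1.34-fold higher in this class.

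Among the transcription factors, Irf1, an early target of interferon gamma that itself activates interferon response genes, had 63 fragments in sham and 143 in stroke astrocyte-like nuclei, or 17.3 and 26.8 CPM (ratio 1.55, 1.14 to 2.11). Stat2, a factor of the type I complex, had 204 and 275 fragments, or 56.2 and 51.6 CPM (0.92, 0.76 to 1.11). Irf9, its DNA-binding partner, stood at 22.3 and 27.2 CPM (1.22, 0.92 to 1.62), and Irf7, which amplifies type I interferon production, at 7.71 and 10.5 CPM (1.36, 0.85 to 2.23). Only the interval of Irf1 lay apart from 1. The loci of all 4 factors overlap a neighbouring protein-coding gene, Apof for Stat2, Gm17334 for Irf1, Phrf1 for Irf7 and Rnf31 for Irf9, and fragments in the overlap cannot be assigned to one of them.

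No sensor was called over its whole locus in astrocyte-like nuclei. Ifih1 (MDA5) and Ddx58 (RIG-I), which detect viral double-stranded RNA in the cytoplasm, had ratios of 0.76 (0.55 to 1.06) and 1.24 (0.80 to 1.95). Eif2ak2 (PKR), a kinase that halts translation on binding double-stranded RNA, had 1.24 (0.89 to 1.75) over a locus that overlaps Sult6b1 and 1.74 (1.1 to 2.83) over its promoter, and Zbp1, a sensor of Z-form nucleic acid, 1.36 (0.58 to 3.44). Trim25, the ubiquitin ligase that acts on RIG-I, had 58 fragments in sham and 57 in stroke, or 16.0 and 10.7 CPM (0.67, 0.46 to 0.98). Grouped with the sensors for that role, it had the lowest ratio of the group and lay just short of the 1.5-fold rule. Over the promoters, Eif2ak2 was the only sensor higher in stroke. There Ifih1 stood at 6.33 CPM in sham and 4.50 in stroke, and Ddx58 at 4.40 and 3.37. Zbp1 stood at 1.38 and 1.31 and Trim25 at 7.98 and 4.69. For each of them the intervals of the sham and stroke levels overlapped.

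Among the antiviral effectors, 6 of the 14 that could be compared were higher in stroke. Ifit3 had 9 fragments in sham and 35 in stroke, or 2.48 and 6.56 CPM (2.65, 1.2 to 6.26), and its neighbour Ifit2 had 45 and 113, or 12.4 and 21.2 CPM (1.71, 1.2 to 2.47). Ifit1, on the same stretch of chromosome 19 and overlapping Ifit1bl2, had 11 and 16 fragments and the same level of 3.03 and 3.0 CPM (0.99, 0.43 to 2.36). The intervals of the 3 neighbours overlapped. Ifitm3, a membrane protein that hinders virus entry, had 10 and 32 fragments, or 2.75 and 6.0 CPM (2.18, 1.05 to 4.97). Parp14, an ADP-ribosyltransferase, had 14 and 44, or 3.85 and 8.25 CPM (2.14, 1.15 to 4.23). Both start from few fragments, as their wide intervals show. The 4 oligoadenylate synthetase loci, whose family makes the activator of RNase L, were on balance level, with 89 and 128 fragments in sum and a ratio of 0.98 (0.74 to 1.3), with Oas2 at 0.73 (0.50 to 1.05) and Oas3 at 1.91. Isg15, the ubiquitin-like modifier, had 10 and 13 fragments and too few to compare.

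All 4 guanylate-binding protein genes were higher in stroke. These interferon-inducible GTPases lie within 144 kb of chromosome 3 (142493978 to 142638008). In astrocyte-like nuclei Gbp2 had 19 fragments in sham and 60 in stroke, or 5.23 and 11.2 CPM (2.15, 1.27 to 3.82), and Gbp3 had 42 and 108, or 11.6 and 20.2 CPM (1.75, 1.22 to 2.56). For Gbp5 the values were 45 and 134, or 12.4 and 25.1 CPM (2.03, 1.44 to 2.91), and for Gbp7 48 and 133, or 13.2 and 24.9 CPM (1.89, 1.35 to 2.68). The 4 ratios lay within one another's intervals, and the genes share 1 region. The Gbp2 locus overlaps Gbp2b, and fragments in the overlap cannot be assigned to one of them. Summed, the family stood at 0.489 CPM per kb (0.415 to 0.572) in sham and 0.940 (0.854 to 1.03) in stroke, a difference of 0.451, where the closed loci differed by 0.0240. These fragments came from 99 sham and 242 stroke nuclei, with at most 7 and 12 from any single nucleus.

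**Figure D3:**
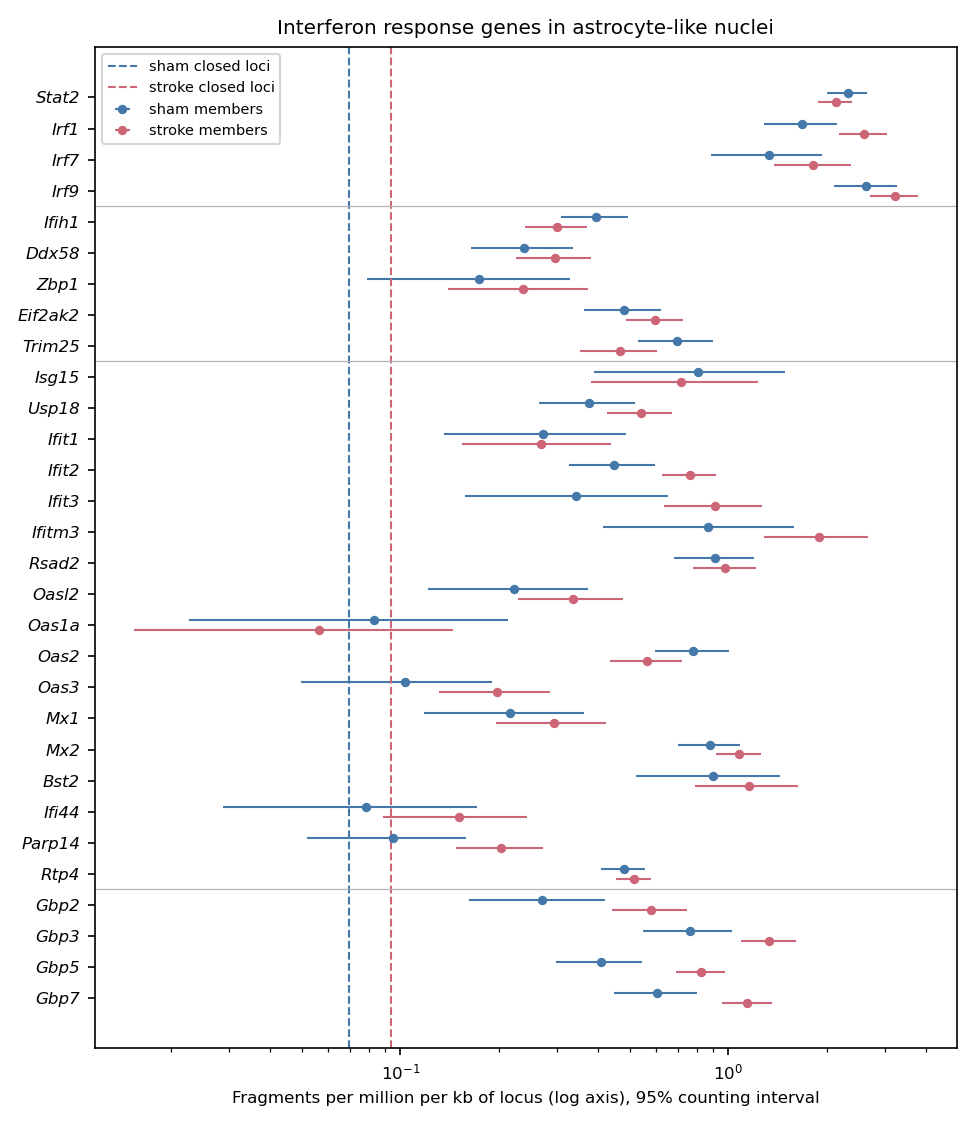
Level of each of the 30 genes in astrocyte-like nuclei of the sham (blue) and stroke (red) library, in CPM per kb on a log axis, with 95% counting intervals, and the mean level of the closed loci as dashed lines (0.0700 in sham, 0.0939 in stroke). The 4 Gbp genes, Ifit3 and Ifitm3 lie to the right in stroke, Trim25 lies to the left, and Oas1a lies at the level of closed chromatin.

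Several measures moved with the stroke library in this class and are given beside these values. The median share of fragments in peaks was 54.8% in sham and 50.2% in stroke astrocyte-like nuclei, and the median depth 4624.5 and 7704 fragments. Closed loci were 1.34-fold higher in stroke (1.29 to 1.39), while fragments over all gene starts were 0.862 of the sham share. Among the called genes, Parp14 at 0.0948 and 0.203 CPM per kb and Oas3 at 0.104 and 0.198 lay closest to the level of closed chromatin. Of markers of other cells, the 9 macrophage genes summed to 60.3 CPM in sham and 81.4 CPM in stroke (1.35, 1.14 to 1.59), the 8 microglia genes to 148 and 138 (0.93, 0.83 to 1.04), the 8 granulocyte genes to 22.0 and 24.4 (1.11, 0.83 to 1.48) and the 9 T and NK cell genes to 100.8 and 114.5 (1.14, 0.997 to 1.3). No marker of these lists was at 0 in stroke. The part of any of these in the differences was not tested.

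Where in the loci the differences lay was measured in windows of 500 bp in astrocyte-like nuclei. At member loci 27 windows had enough fragments to compare, and 12 (44.4%) were at least 1.5-fold higher in stroke, beside 14.3% of 35101 windows of all gene loci. Another 4 (14.8%) were lower, beside 19.7%. The minimum was again set on both libraries together, for member windows and for those of all gene loci. Higher windows with few sham fragments, such as 4 at the Ifitm3 start and 5 at the Gbp7 start, passed it through their stroke fragments. The interval lay above 1 for 6 of the 12 and below 1 for 2 of the 4. Over all gene loci it did so for 2420 of 5020 higher windows and 4025 of 6921 lower ones. The 12 belonged to 9 genes. Of the 12, 8 held the response element core and 6 the gamma-activated site, whereas 6.18% and 18.5% of all higher windows did. Of the 27 member windows, whatever their ratio, 11 (40.7%) held the core and 8 (29.6%) the gamma-activated site, beside 4.96% and 12.4% of all windows compared.

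The window with the largest difference lay in the intron of Gbp5 printed above, centred 2.35 kb after the principal start. It had 7 fragments in sham and 51 in stroke astrocyte-like nuclei, or 1.93 and 9.56 CPM (4.96, 2.24 to 13). In stroke the 6 other classes together had 13 fragments there, or 0.529 CPM, so the astrocyte-like level was 18.1 times theirs (9.69 to 36.2), and in sham 25.6 times (5.84 to 153). Myeloid-like nuclei of the stroke library had 2 fragments in this window. A window 10.9 kb into Gbp7 had the same make-up, with 8 fragments in sham and 29 in stroke, 2.20 and 5.44 CPM (2.47, 1.1 to 6.25), and 22.3 times the level of the other classes in stroke (9.08 to 65.6). Both windows were taken for their fragments in astrocyte-like nuclei, so the ratios to the other classes are a description of these stretches only.

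One other higher window lay 89.5 kb into Rtp4 (7 and 22 fragments, 2.14, 0.88 to 5.93). The stretch about its highest point overlaps 5 annotated exon entries and holds 4 response element cores. The start and promoter values of Rtp4 were taken at the other end of its model, where the annotated principal start lies. The Irf1 window that overlaps the printed promoter had 23 fragments in sham and 69 in stroke, or 6.33 and 12.9 CPM (2.04, 1.26 to 3.43), and the other classes stood at 2.99 and 4.23 CPM. The Mx2 window printed above, 0.833 kb before its principal start, had 24 and 70, or 6.61 and 13.1 CPM (1.99, 1.23 to 3.30). In the Gbp3 window 0.698 kb after the start the counts were 20 and 58 (1.97, 1.17 to 3.47), at the Ifitm3 start 4 and 21 (3.57, 1.21 to 14.3), and at the Gbp7 start 5 and 20 (2.72, 0.99 to 9.29). Mx2, a dynamin-like GTPase, and Rsad2 (viperin), an enzyme that makes a chain-terminating nucleotide, had a higher window while their whole loci had ratios of only 1.23 and 1.07. Eif2ak2 had 2 such windows, at its start, with 18 and 41 fragments (1.55, 0.87 to 2.87) and 8 and 23 (1.96, 0.85 to 5.06). The Gbp7 start window was also open in the stroke myeloid-like nuclei, with 17 fragments or 6.64 CPM, beside 3.75 CPM in astrocyte-like nuclei. Windows that were lower in stroke lay at the starts of Trim25 (22 and 16 fragments) and Ifih1 (17 and 15) and inside Oas2 and Rtp4.

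**Figure D4:**
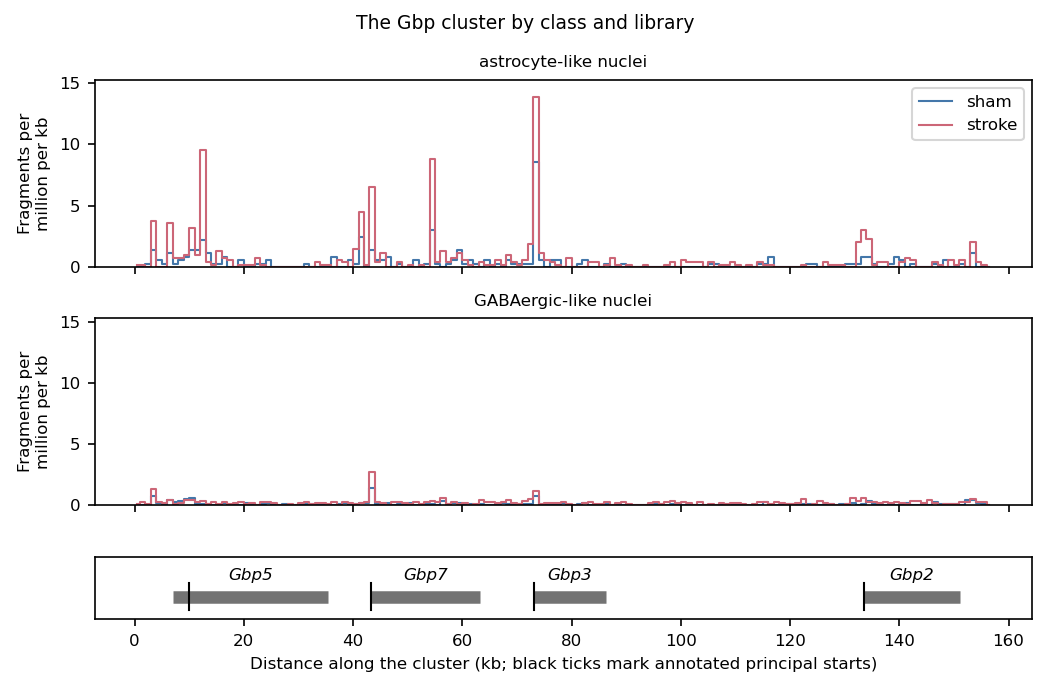
CPM in 1 kb bins along the Gbp cluster in astrocyte-like (top) and GABAergic-like (middle) nuclei of the sham (blue) and stroke (red) library, with the 4 gene bodies below in the same scale of kb. The red peaks inside Gbp5 and Gbp7 and at the start of Gbp3 stand above the blue in astrocyte-like nuclei, and the GABAergic-like track has no such peak inside Gbp5.

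Summed over all 30 starts, the signal within 500 bp of the start was 135 CPM in sham and 174 CPM in stroke astrocyte-like nuclei (1.28, 1.15 to 1.43), and from there to 3 kb on either side 130 and 166 CPM (1.28, 1.14 to 1.43). Over the promoters alone, taken as 1 kb on either side of the start, the ratio was 1.33 (1.21 to 1.46) in this class. GABAergic-like nuclei stood at 60.2 and 74.3 CPM within 500 bp of the starts, a ratio of 1.23 (1.14 to 1.34) that lay inside the astrocyte-like interval, and at 80.9 and 87.1 CPM from there to 3 kb (1.08, 1.0 to 1.16).

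**Figure D5:**
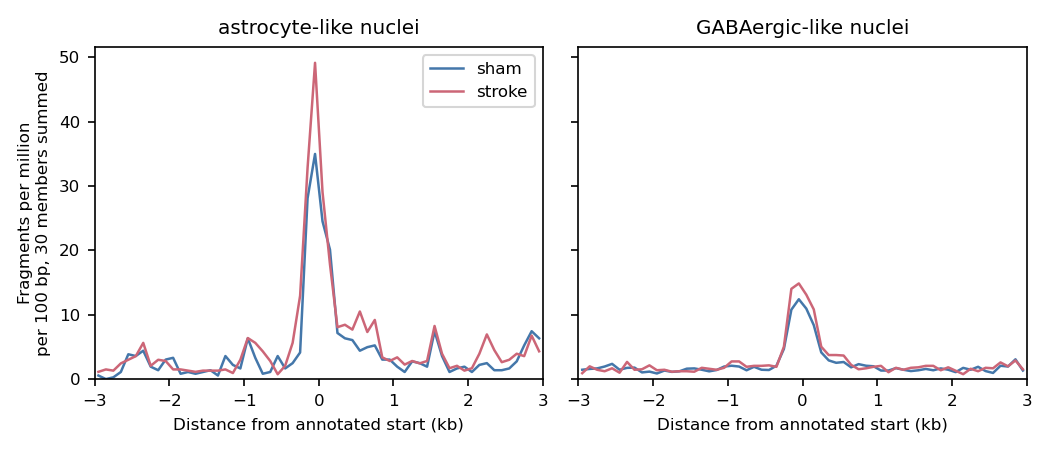
CPM of fragment centres in 100 bp bins around the annotated starts of the 30 genes, summed, in astrocyte-like (left) and GABAergic-like (right) nuclei of the sham (blue) and stroke (red) library. The signal within 500 bp of the start is higher in stroke in both classes (1.28-fold and 1.23-fold), and its level is lower in GABAergic-like nuclei of both libraries.

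In GABAergic-like nuclei the summed level was 248 CPM in sham and 289 CPM in stroke (1.17, 1.12 to 1.22), an interval that overlapped the astrocyte-like one, while closed loci were 1.47-fold higher. All 30 genes could be compared, and 4 were higher and 0 lower, beside 5.52% of 18898 genes higher and 280 of 18898 lower. The count depended on the processing. More members were called higher under several other settings, and under some of them members were also called lower. The closing section gives these counts beside the shares of all genes. The 4 were Gbp2 (48 and 64 fragments, 2.45, 1.66 to 3.64), Gbp3 (47 and 45, 1.76, 1.14 to 2.71), Gbp7 (92 and 91, 1.82, 1.34 to 2.46) and Ifi44 (55 and 46, 1.54, 1.02 to 2.32). The Gbp family stood here at 0.133 and 0.236 CPM per kb, a difference of 0.103 beside 0.0245 at closed loci. A single nucleus gave 22 of its 269 stroke fragments, and another gave 20 of 279 in sham. At 0.236 the family stood below the 0.489 of sham astrocyte-like nuclei. Ifi44 was at 0.108 and 0.167 CPM per kb, with closed loci at 0.0523 and 0.0768.

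In glutamatergic-like nuclei the summed level was 235 and 255 CPM (1.09, 1.02 to 1.15), with closed loci 1.23-fold higher in stroke. Of 29 genes compared, 4 were higher and 0 lower, beside 4.42% of 17586 genes higher and 550 of 17586 lower. These were Trim25 (59 and 51 fragments, 2.01, 1.35 to 2.97), Ifit3 (34 and 27, 1.84, 1.07 to 3.15), Rsad2 (90 and 67, 1.73, 1.24 to 2.40) and Gbp3 (43 and 32, 1.73, 1.06 to 2.80). Trim25 thus had opposite directions in glutamatergic-like and astrocyte-like nuclei, a contrast that was not tested. Among nuclei with over 30% of fragments in peaks, a limit chosen after the data had been seen, the summed ratio in this class was 0.981.

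In oligodendrocyte-like nuclei the summed level was 257 CPM (156 fragments) in sham and 384 CPM (416 fragments) in stroke, a ratio of 1.5 (1.24 to 1.81) with closed loci at 1.33. The interval overlapped the astrocyte-like one, and with each nucleus placed on its own markers the ratio was 1.2. Only 4 genes could be compared, and 3 were higher, Irf1 (5 and 27 fragments, 3.03, 1.15 to 10.1), Mx2 (13 and 47, 2.03, 1.08 to 4.08) and Rtp4 (18 and 56, 1.74, 1.01 to 3.15), beside 9.98% of 11408 genes. Rtp4 encodes a receptor chaperone, and its model spans 95.9 kb with the upstream part and overlaps Masp1. OPC-like nuclei had a summed ratio of 0.90 (0.75 to 1.08) where closed loci were 1.56-fold higher, and of 1.11 with each nucleus on its own markers. Of 7 genes compared there, Irf9 (23 and 9 fragments, 0.34, 0.14 to 0.77) and Trim25 (17 and 11, 0.57, 0.24 to 1.28) were lower, beside 16.8% of 11641 genes lower. In vascular-like nuclei the sum was level at 552 and 530 CPM (0.96, 0.82 to 1.12), with closed loci at 0.948, and the ratio was 1.22 with each nucleus on its own markers. Of 6 genes compared there, Rtp4 was higher (6 and 33 fragments, 2.01, 0.83 to 5.88) beside 13.9% of 9456 genes higher, and Irf1 was lower (26 and 44, 0.62, 0.37 to 1.05) beside 13.9% lower. Both intervals took in 1. Irf1 in oligodendrocyte-like and Rtp4 in vascular-like nuclei, with 5 and 6 sham fragments, passed the minimum through their stroke fragments. Irf9 in OPC-like nuclei, with 9 stroke fragments, passed it through its sham fragments.

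Myeloid-like nuclei could not be compared between the libraries, because the 23 sham nuclei gave 49 member fragments. The sum was 367 CPM in sham (272 to 486) and 489 CPM in stroke (462 to 517), a ratio of 1.33 (1.0 to 1.81). The make-up of the class also differed, with the microglia genes at 645 and 408 CPM and the macrophage genes at 82.5 and 197 CPM, and the part of this was not tested.

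Within the stroke library, myeloid-like nuclei could be set against all other kept nuclei. Of 26 genes compared 17 were at least 1.5-fold higher and 0 lower, beside 13.4% of 16622 genes higher. Ifit3 had 35 fragments and 13.7 CPM, 2.96 times the other nuclei (2.01 to 4.24), and Bst2 (tetherin), which holds budding virus at the cell surface, had 44 and 17.2 CPM (2.85, 2.03 to 3.92). Zbp1 stood at 2.67 times (1.75 to 3.95), Parp14 at 2.61 (1.95 to 3.44), Irf1 at 2.27 (1.8 to 2.82) and the 4 Gbp genes between 2.00 and 2.47. The rest of the 17 were Ifit2, Ddx58, Oasl2, Mx1, Mx2, Usp18, Eif2ak2 and Trim25, with ratios from 1.58 to 2.07. Closed loci were 1.39 times as high in myeloid-like as in the other nuclei, so ratios near that value were no larger than that of closed chromatin. In sham, where closed loci were at 1.96 times the other nuclei, 11 of the 17 had a ratio above 1, on counts of 0 to 4 fragments, and of these Irf1 (1.81), Mx2 (1.75), Gbp5 (1.88) and Trim25 (1.82) lay below the closed loci.

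In vascular-like nuclei of the stroke library 9 of 17 genes compared were higher than in the other nuclei, beside 17.0% of 14558 genes. They were Stat2, Irf1, Irf7, Ifit2, Ddx58, Oas3, Usp18, Parp14 and Trim25, all of them also above 1 in sham. Closed loci were 1.14 times as high as in the other nuclei in stroke and 1.76 times in sham, and the sham ratios of Irf7 (1.32) and Ddx58 (1.23) lay below the latter. Irf1 stood at 39.3 CPM, 2.43 times the others (1.76 to 3.30), and in sham at 63.5 CPM, 5.23 times (3.39 to 7.71). Per kb of locus, Ifitm3 was the member most open in this class, with 19 fragments in stroke and 11 in sham, or 5.33 and 8.44 CPM per kb, against 1.88 and 0.864 in astrocyte-like nuclei. Over promoters of equal width it stood at 6.70 and 13.4 CPM per kb in stroke and sham. That was below Stat2 at 20.1 and 23.2 and Irf1 at 14.3 and 20.8. The ratio of the Ifitm3 locus to the other nuclei was 7.57 (4.40 to 12.4) in stroke and 13.7 (6.70 to 25.3) in sham, though it missed the minimum for a call. Zbp1 followed at 4.39 (2.66 to 6.88) and 6.32 (2.86 to 12.2), and it missed the minimum too. Gbp7 was the only gene called lower, with 7 fragments (0.64, 0.26 to 1.33), beside 18.3% of genes lower. In sham its 7 fragments put it at 3.52 times the others (1.40 to 7.33), the opposite direction. Stat2, Irf1, Ifitm3, Ifi44, Parp14 and Zbp1 had their highest level in vascular-like nuclei of both libraries. Only that of Ifitm3 in stroke had an interval apart from the next class.

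Astrocyte-like nuclei exceeded the other nuclei of the stroke library in 11 of 29 genes, beside 15.7% of 17920 genes. They were Stat2, Irf1, Ifitm3, Rsad2, Mx2, Eif2ak2, Rtp4 and the 4 Gbp genes, and the 11 were above 1 in sham too. Closed loci were 1.12 times as high as in the other nuclei in stroke and 1.22 times in sham. Gbp5 had the highest ratio in stroke, 3.95 (3.20 to 4.85), beside 3.48 (2.47 to 4.79) in sham, and Gbp3 had the highest in sham, 4.30, beside 3.32 in stroke. Isg15 (13 fragments, 0.596, 0.312 to 1.04), Ifih1 (84, 0.655, 0.518 to 0.818) and Oas3 (28, 0.548, 0.360 to 0.802) were lower, beside 20.3% of genes lower. Over the whole locus the level of Ifih1 was highest in glutamatergic-like nuclei, at 0.589 CPM per kb in sham and 0.552 in stroke, where the interval overlapped that of the next class. Over its promoter it was lower there, 0.967 and 0.666 CPM per kb, than in astrocyte-like nuclei, 3.16 and 2.25.

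Other genes of the pathway were counted from 2 lists. Of 26 ligand, receptor and signaling genes, 24 could be compared in astrocyte-like nuclei, and 3 were higher and 0 lower, with a median log2 ratio of 0.09. They were Socs3, the feedback inhibitor of cytokine receptors (152 and 404 fragments, 1.81, 1.5 to 2.20), Tlr7 (7 and 31, 3.02, 1.3 to 8.11) and Cgas (9 and 22, 1.66, 0.74 to 4.11). Of 50 further response genes, 44 could be compared, 12 were higher and 3 lower, with a median of 0.21, beside 8.51% of all genes higher and 6.03% lower. The higher ones included Irgm1, an immunity-related GTPase (86 and 204 fragments, 1.62, 1.3 to 2.1), Ifi27 (28 and 79, 1.92, 1.23 to 3.07), Herc6 (45 and 118, 1.79, 1.26 to 2.58) and Cxcl10, a chemokine (9 and 26, 1.97, 0.89 to 4.77). The lower ones were Slfn5 (28 and 11, 0.27, 0.12 to 0.55), Uba7 (55 and 48, 0.59, 0.39 to 0.89) and Ly6e (23 and 21, 0.62, 0.33 to 1.18). Tlr7, Cgas and Cxcl10 passed the minimum through their stroke fragments, and Slfn5 through its sham fragments. In GABAergic-like nuclei 0 of 25 and 8 of 50 were higher and none of either list lower, beside the 5.52% of all genes higher given above, and Irgm1 was again among them (135 and 139, 1.89, 1.48 to 2.42).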

How the data were processed

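Single-nucleus chromatin accessibility (scATAC-seq) was measured in 1 sham and 1 stroke library of mouse brain. Per the submitters' processing notes the authors used Cell Ranger ATAC 2.1.0 and the mm10 build. They deposited a list of deduplicated fragments per library and counts of fragments per barcode, without normalization. Barcodes called as cells with over 20% of fragments in peaks were kept; under the study's further limits on fragments in peaks and blacklist, 5948 sham and 4379 stroke nuclei would remain of 6979 and 8740 called barcodes. The study states more stroke nuclei than were called as cells in these files, so its count cannot come from these limits applied to the called barcodes. Fragments were counted over GENCODE M21 loci and scaled per 1000000 fragments of the same nuclei, so more background in a library lowers the share left for open sites.

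Classes were set from summed marker counts of each nucleus and its 20 nearest neighbours on components 2 to 30 of a latent semantic index of 5 kb tiles, without 597 tiles over interferon pathway genes. A class needed 2-fold over background, a Poisson tail under 0.001 and a lead of 1.3-fold over the next class. A gate on each nucleus alone was tried first and replaced because markers held out of it were little enriched; it is given as an alternative. Intervals are exact Poisson for levels and exact conditional binomial for ratios, at 95%, and cover counting error only. The comparison was also run on simulated data, and the outcome is not given here. Members and gene lists were chosen with earlier results of these data known. Genes named are those called in a comparison, the most and least accessible, and others of the same role, which were chosen after their values were seen. Alternatives are in the closing section. Python 3.11.15, numpy 2.4.6, scipy 1.17.1, pandas 2.3.3, scikit-learn 1.9.0 and matplotlib 3.10.9 were used. Paralogous loci such as the Gbp and Ifit genes may lose reads that map to more than 1 place, and the mapping filter is not given in the sources used here.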

Additional observations from a re-analysis of the deposited data

How the results depend on the processing

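No paired analysis was possible because sham and stroke had 1 library apiece, and for the same reason no replicate could be left out. Of 368 values recomputed under other settings, 259 moved by less than their counting interval or by less than 1.5 times for a count, 108 moved by more, and 1 whose interval had lain apart from 1 crossed it. Summed ratios whose interval had taken in 1 also crossed it, in OPC-like nuclei (1.11) and vascular-like nuclei (1.22) on own markers, and in vascular-like nuclei with all called barcodes (1.01), scaling to promoter fragments (1.08) and a lead of 2 (1.02). The summed ratio in astrocyte-like nuclei ranged from 1.22 to 1.44. The cause of each shift below was not tested. The gate on each nucleus's own markers, 30 neighbours, the 30% limit and the subtraction of closed loci were chosen after seeing the data.

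Counts of members called higher are followed by the share of all genes called higher under the same setting, and counts called lower by the share called lower. A fold threshold midway between 1 and 1.5 called 16 in all nuclei (19.7%), 13 in GABAergic-like (12%, with 3 lower, 8.54%) and 8 in glutamatergic-like nuclei (12.1%, with 2 lower, 14.7%), and a minimum of 20 expected fragments called 7 in astrocyte-like nuclei (6.54%). With all called barcodes the calls were 12 in all nuclei (20.9%) and 11 in GABAergic-like nuclei (22.8%), where 7 were lower (44.6%), the summed ratio over all nuclei was 1.2, and vascular-like nuclei were 1.88 times the others. With over 30% of fragments in peaks GABAergic-like calls were 8 (3.03%, with 3 lower, 2.69%), the ratio over all nuclei was 1.27, and that of glutamatergic-like nuclei reversed to 0.981. Subtracting closed loci gave 1.2 over all nuclei and 1.12 in GABAergic-like nuclei. Promoter windows called 14 in all nuclei (8.63%) and 10 in GABAergic-like nuclei (3.05%, with 1 lower, 3.99%), with summed ratios of 1.36 (all) and 1.33 (astrocyte-like), and put astrocyte-like, myeloid-like and vascular-like nuclei at 2.13, 1.88 and 2.5 times the others. Scaling to promoter fragments called 9 in all (14.7%), 8 in GABAergic-like (7.39%) and 7 in glutamatergic-like nuclei (9.0%), with summed ratios of 1.36 (all), 1.44 (astrocyte-like), 1.26 (GABAergic-like), 1.24 (glutamatergic-like) and 1.81 (oligodendrocyte-like), and put the 3 classes at 1.07, 1.48 and 1.26 times the others.

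Among gates, each nucleus on its own markers called 12 in GABAergic-like nuclei (5.25%), gave summed ratios of 1.11 (OPC-like), 1.2 (oligodendrocyte-like) and 1.22 (vascular-like), and put the 3 classes at 1.33, 1.34 and 1.09 times the others. Every other marker called 8 in glutamatergic-like nuclei (4.27%). A lead of 2 called 7 in GABAergic-like nuclei (4.72%) and 0 in glutamatergic-like nuclei, with 0 genes compared, gave ratios of 1.22 in both neuronal classes, and put myeloid-like and vascular-like nuclei at 1.76 and 1.88 times the others. With 30 neighbours vascular-like nuclei were at 1.89 times the others.

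Calls in the smaller classes moved too. A minimum of 1 expected fragment called 15 higher (31.9%) and 4 lower (21.5%) in myeloid-like nuclei, 14 (18.8%) and 2 (20.7%) in oligodendrocyte-like, 7 (19.9%) and 4 (20.8%) in OPC-like and 8 (23.0%) and 9 (17.7%) in vascular-like nuclei. Counting cut ends called 7 higher in oligodendrocyte-like nuclei (13.1%), 3 in OPC-like (15.6%) and 7 in vascular-like nuclei (17.6%), with 4 lower in the last (15.4%). In vascular-like nuclei all called barcodes gave 3 higher (14.6%) and 2 lower (11.2%), and the stated limits gave 0 of each, with 2 genes compared (15.4% and 16.5%).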

Other observations

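Barcodes called as cells but left out for their low share of fragments in peaks also carried member fragments. In stroke, 3686 such barcodes had a summed level of 298 CPM (293 to 304) or 0.440 CPM per kb, beside 0.273 CPM per kb at closed loci, and in sham 162 had 347 CPM (316 to 380) or 0.512 CPM per kb, beside 0.233. In kept nuclei the closed loci stood at 0.0850 CPM per kb in stroke and 0.0581 in sham.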
